A study of Mus musculus with 6 samples.

Results

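Zinc import, export and storage genes were examined in mouse embryonic stem (ES) cells that had been differentiated as embryoid bodies, free-floating aggregates, and then sorted for the surface protein Flk1. The set held 9 genes: the importers Slc39a4, Slc39a8, Slc39a10 and Slc39a14, the exporters Slc30a1 and Slc30a5, the metallothioneins Mt1 and Mt2, and the metal sensor Mtf1. Every probe set whose platform annotation gave exactly one of these symbols was taken, which made 20 probe sets of the 45037 measured. Slc39a4 was picked because it was higher in each induced array, so its difference between the groups is described here without a test. The other 8 genes were added for their family or function, with earlier results of these arrays known.

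All cells came from a single line, ER71 A17C, of 129P2/Ola background, which carries a doxycycline-inducible Etv2 cassette (ER71 A2Lox.cre). Etv2 is an ETS-family transcription factor of the endothelial and blood lineages. In the 3 induced samples doxycycline was present at 0.5 microg/ml for 12 hours from day 3.0, and the 3 controls were the same line left untreated, per the series' design text. One treatment field gives the doxycycline text for all 6 samples, so the titles were used for the groups. All cells were collected at day 3.5 and sorted for Flk1, the VEGF receptor encoded by Kdr, which marks early mesoderm. No doxycycline-treated line without the cassette was analysed here, so an effect of the drug, which as a tetracycline binds divalent metal ions, and an effect of Etv2 cannot be told apart. No label says whether replicates were separate cultures, so p-values cover only the spread among these arrays, which may be technical.

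Etv2 lay between 13.27 and 13.36 in the induced arrays and between 8.59 and 10.71 in the controls, on the log2 RMA scale that is used for all levels here. Kdr, which the sort selects, was at 10.02, 8.40 and 10.97 in the controls, in the order of replicates 1 to 3, and at 9.56, 9.36 and 10.52 in the induced arrays, so the groups overlapped. The array medians over all probe sets lay between 7.34 and 7.40, and induced 2 stood apart with a lower quartile of 6.06 against 5.96 to 6.003 in the other arrays. The mean of 11 measured mesoderm genes ran from 9.82 to 11.34 over the controls and from 10.29 to 10.99 over the induced arrays. That of 12 pluripotency genes ran from 10.35 to 11.06 and from 10.66 to 10.84. Control 2 had the lowest Kdr and the lowest mesoderm mean, with the highest pluripotency mean. In bulk samples like these, fewer cells of a type and less RNA per cell cannot be told apart.

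Cells keep free zinc low by balancing its entry, exit and storage. Transporters of the SLC39 (ZIP) family bring zinc into the cytosol, and those of the SLC30 (ZnT) family take it out of the cytosol, across the cell surface or into organelles. Metallothioneins are small cysteine-rich proteins that hold zinc and copper. When zinc rises, the zinc-finger factor MTF1 binds metal response elements in the promoters of the metallothionein genes and of Slc30a1 and activates them, and it represses Slc39a10.

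Among the 20 probe sets, Slc39a4 and the main probe sets of Mt1 and Mt2 had the largest differences, while the remaining 17 lay between -0.20 and 0.32. Without the picked Slc39a4, positive differences, induced minus control, were found in 11 of 19 probe sets and negative ones in 8, with a median of 0.076. Over all 45037 probe sets 23054 were positive, with a median of 0.0029. Outside Slc39a4, limma called 0 of 19 probe sets at an adjusted p under 0.05, with adjusted p = 0.9998 for each, and 1 of 19 at an unadjusted p under 0.05. Over all probe sets limma called 1, a probe set of Hprt, which is 0.00222%, and 690, or 1.53%, at an unadjusted p under 0.05. A fit blocked on the replicate number called 0, and so did each fit with 1 array left out. Etv2 itself, with a difference of 3.56 ± 0.46 (SE) or 11.8-fold, was not called in the main fit either (limma adjusted p = 0.9998). A missing call in these arrays therefore does not show that a gene was unchanged. Induced arrays lay wholly above the controls in 3 of the 20 probe sets, the picked Slc39a4 and 1 probe set each of Slc30a1 and Mtf1, and wholly below in 0. Over all probe sets 6.42% did not overlap, 2.72% with the induced arrays higher and 3.7% with them lower.

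**Figure D1:**
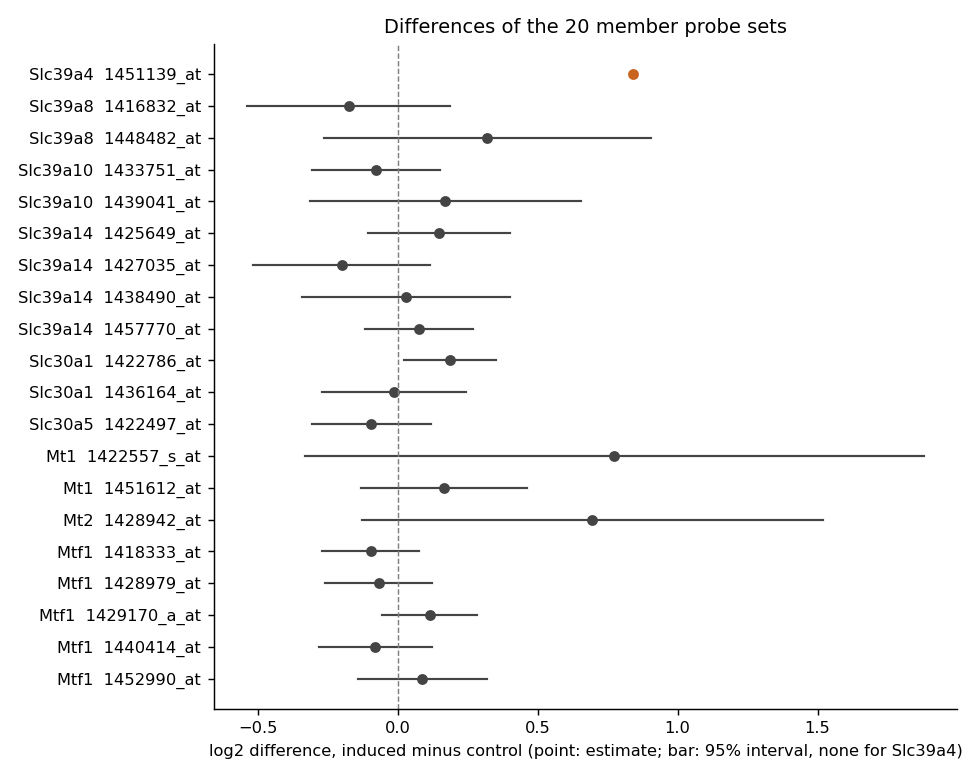
Log2 difference, induced minus control, for each of the 20 member probe sets, with the estimate as a point and the 95% interval of the limma fit as a bar. Slc39a4, at 0.84, was picked on this contrast and has no bar, the main probe sets of Mt1 (0.77) and Mt2 (0.70) have the widest bars, and only the bar of Slc30a1 probe set 1422786_at lies wholly above 0.

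Slc39a4 encodes ZIP4, the surface importer that takes up dietary zinc in the gut and is also made in the visceral endoderm of the yolk sac. Its only probe set, 1451139_at, read 7.69, 8.09 and 7.81 in the controls and 8.78, 8.66 and 8.67 in the induced arrays, again by replicate number. The lowest induced array thus lay above the highest control, control 2. Controls averaged 7.86 ± 0.20 (SD, n = 3) and induced arrays 8.70 ± 0.065, a difference of 0.84 ± 0.11 (SE) or 1.79-fold. Within replicate numbers 1, 2 and 3 the induced array was higher by 1.08, 0.57 and 0.86. Without induced 2 it was 0.86, and its direction was fixed by how the gene was picked.

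The list mean of visceral endoderm markers was higher in the induced arrays than in the controls, a separation that depended on Sox17. Over 14 measured markers of 15 listed, the control means were 7.84 to 7.93 and the induced means 7.96 to 8.08, the last in induced 2. Sox17 varied most of the 14, at 10.02, 8.29 and 10.81 in the controls and 9.43, 9.56 and 10.61 in the induced arrays, so its groups overlapped. Of the 14 markers 11 were higher, against 23054 of all 45037 probe sets, with a median difference of 0.10. Limma called 0, and 1 of them, Cubn, had an unadjusted p under 0.05, as 1.53% of all probe sets had. Induced 2 was the highest array for 8 of the 14, against 31.8% of all probe sets, and without it 10 were higher with a median of 0.043. Among its defining genes, the alpha-fetoprotein gene Afp ran from 5.63 to 5.68 in controls and read 5.62, 5.89 and 5.66 in induced arrays 1, 2 and 3, so induced 2 alone was high. The gene Amn, for a partner of cubilin in endocytosis, ran from 6.58 to 6.93 and from 6.81 to 7.18. Cubn itself, for the endocytic receptor cubilin, ran from 5.98 to 6.13 and from 6.17 to 6.43. The differences of Rbp4, for a retinol carrier, Dab2, for an endocytic adaptor, and the transcription factor gene Hnf4a were -0.13, -0.070 and -0.014. Afp, Amn and Cubn all lay below the array medians in every array. The largest difference of the 14 was 0.41 ± 0.42 (SE), for the apolipoprotein gene Apoe. In the other marker lists 11 of 12 endothelial, 8 of 12 pluripotency and 3 of 11 mesoderm genes were higher. Their median differences were 0.068, 0.12 and -0.10. The part of the visceral endoderm markers in the Slc39a4 difference was not tested.

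The 6 measured genes nearest to Slc39a4 in the RefSeq gene order, examined after its values were seen, were Fbxl6, Adck5, Cpsf1, Vps28, Tonsl and Cyhr1. Their differences ran from -0.15 for Cyhr1 to 0.14 for Vps28. The groups overlapped for all 6, limma called 0, and 0 had an unadjusted p under 0.05. Likeness to Slc39a4 was measured as the root mean square difference between mean-centred log2 profiles over the 6 arrays, across 16331 genes. The nearest profiles were those of Ltb, a cytokine gene of the tumour necrosis factor family, at 0.12, and Cebpd, for a transcription factor of the C/EBP family, at 0.16. Lmo2, for a cofactor of blood and endothelial factors, followed at 0.17, then Acta1, for skeletal muscle actin, at 0.19 and Sned1 at 0.20. The median over the genes compared was 0.45. Since Slc39a4 was picked for higher levels in the induced arrays, genes near it share that by construction. Cebpd, for instance, read 8.24, 8.56 and 7.96 in the controls and 9.01, 8.85 and 8.82 in the induced arrays, and control 2 was the highest control for Cebpd as for Slc39a4.

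**Figure D2:**
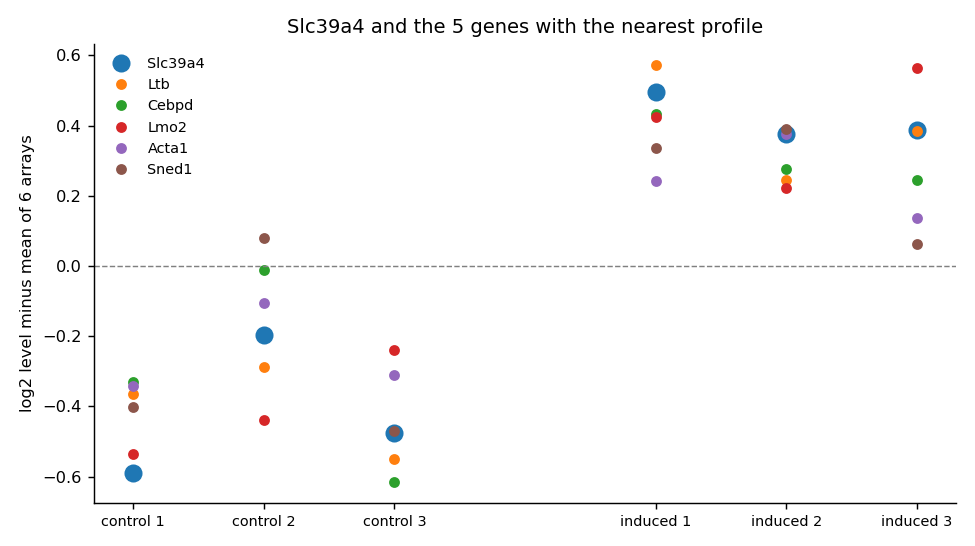
Log2 level minus the gene's mean over the 6 arrays for Slc39a4 and the 5 genes with the smallest root mean square difference from it, 0.12 to 0.20. All points of Slc39a4, Ltb, Cebpd, Lmo2 and Acta1 lie below 0 in the controls and above 0 in the induced arrays, and control 2 of Sned1 lies above 0.

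On every probe set of the other 3 importers the groups overlapped. Slc39a8 encodes ZIP8, which carries zinc and manganese. Its probe set 1416832_at read 8.82, 8.94 and 8.86 in the controls and 8.95, 8.33 and 8.82 in the induced arrays, where induced 2 alone was low. The difference was -0.18 ± 0.16 (SE), with a 95% interval of -0.54 to 0.19, and without induced 2 it was 0.0094. The second probe set, 1448482_at, read 6.52, 7.16 and 6.10 in the controls and 6.73, 7.14 and 6.87 in the induced arrays. Its difference was 0.32 ± 0.25, so the probe sets of Slc39a8 disagreed in sign, and without control 3 it was 0.075 and without control 2 it was 0.60.

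Slc39a10 encodes the surface importer ZIP10. Its probe set 1433751_at read 12.36, 12.24 and 12.47 in the controls and 12.37, 12.13 and 12.34 in the induced arrays, a difference of -0.078 ± 0.098 (SE) with a 95% interval of -0.31 to 0.15. This interval held differences of no more than 0.31 in size, in either direction. Probe set 1439041_at read 10.23, 10.47 and 9.57 in the controls and 10.27, 10.27 and 10.25 in the induced arrays. Control 3 alone was low there, and the difference of 0.17 ± 0.21 became -0.089 without it.

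Slc39a14 encodes ZIP14, which carries zinc, manganese and iron. Its 4 probe sets had differences from -0.20 to 0.15, 3 of them positive. Probe set 1427035_at read 9.65, 9.97 and 9.99 in the controls and 9.72, 9.44 and 9.84 in the induced arrays, a difference of -0.20 ± 0.14 (SE). Probe set 1425649_at read 8.21, 8.19 and 8.33 in the controls and 8.25, 8.61 and 8.31 in the induced arrays, a difference of 0.15 ± 0.11. Induced 2 was the lowest array on the first and the highest on the second, and the groups overlapped on all 4.

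Of the exporters, Slc30a1 encodes ZnT1, which moves zinc out across the cell surface. Its probe set 1422786_at read 8.03, 8.11 and 8.03 in the controls and 8.24, 8.21 and 8.28 in the induced arrays, so all induced arrays lay above all controls. The difference was 0.19 ± 0.071 (SE), which is 1.14-fold, and its 95% interval ran from 0.021 to 0.35. Induced arrays were higher in 3 of 3 pairs, by 0.21, 0.094 and 0.25. This was the probe set, outside Slc39a4, with an unadjusted p under 0.05 in limma. It did not pass after adjustment (limma adjusted p = 0.9998, and at least 0.965 over the settings tried). In the blocked fit its interval ran from -0.014 to 0.39, which includes 0. The other probe set, 1436164_at, read 10.02, 10.08 and 9.78 in the controls and 10.08, 9.81 and 9.95 in the induced arrays. Its difference of -0.013 ± 0.11, with an interval of -0.27 to 0.24, did not repeat that separation. Slc30a5 encodes ZnT5, which loads zinc into the secretory pathway. It read 11.29, 11.19 and 11.31 in the controls and 11.21, 11.02 and 11.28 in the induced arrays, a difference of -0.094 ± 0.091, and was lower in 3 of 3 pairs with overlapping groups.

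**Figure D3:**
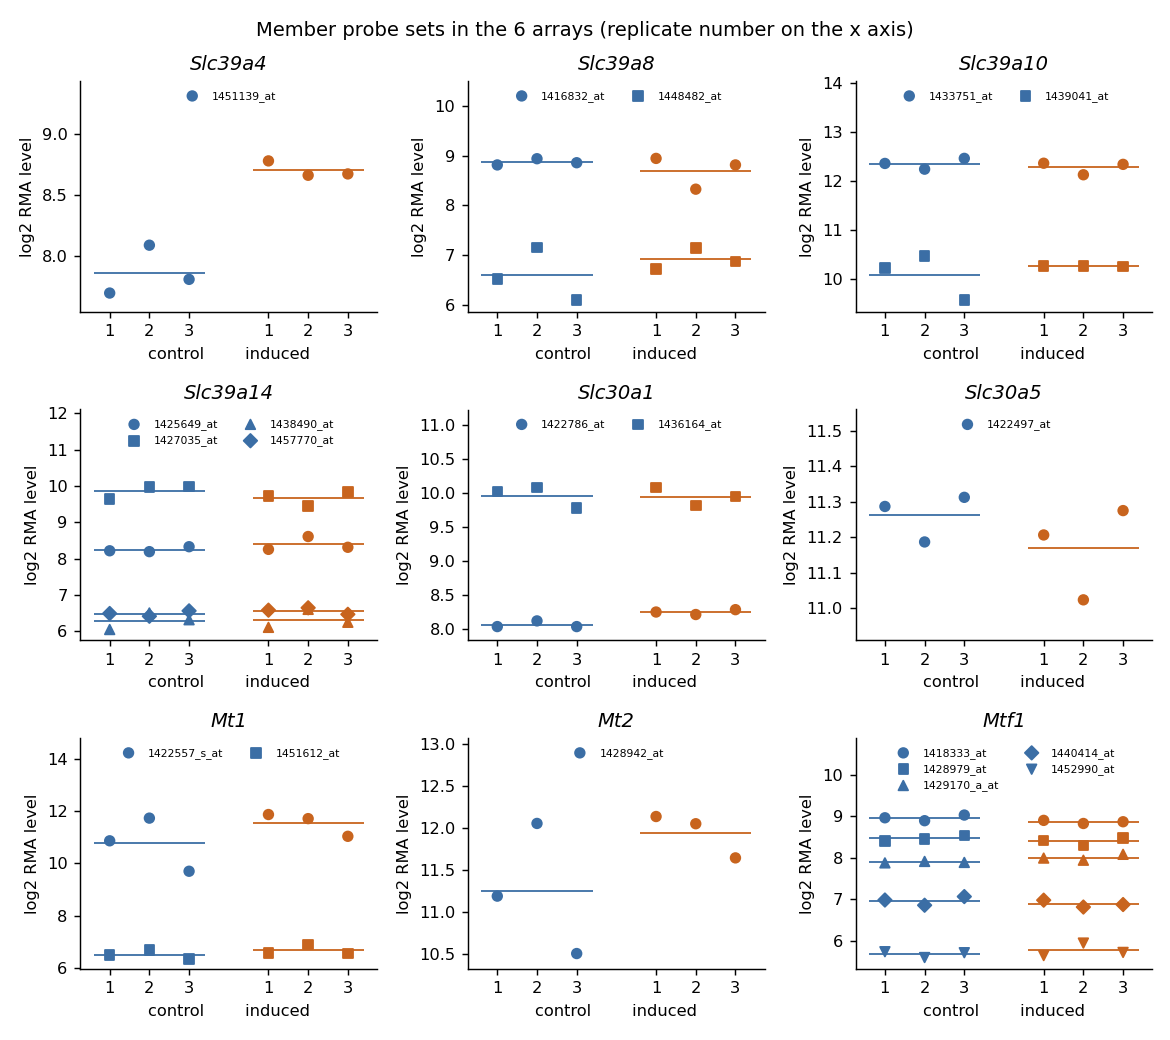
Log2 RMA level of every probe set of the 9 genes in each array, with controls in blue, induced arrays in orange, the replicate number on the x axis, a marker shape for each probe set and a line at each group mean. The groups are apart for Slc39a4, while Mt1 and Mt2 vary most within the controls, from 9.70 to 11.73 and from 10.50 to 12.05.

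The metallothionein genes Mt1 and Mt2 are next to each other on chromosome 8, with Mt3 and Mt4 close by. Since their levels moved together over the arrays, their promoter sequences are shown with that of Slc30a1, the other classical MTF1 target of the set. RefSeq promoter windows of 300 bases, 250 before and 50 after the annotated start (build GRCm38.p6), were found for 7 of the 9 genes, in 9 windows, with none for Slc39a4 and Slc39a14. Capitals mark matches to the metal response element core, TGCACNC or TGCGCNC, on either strand. The Mt1 window is chr8:94178839-94179138 (plus strand), that of Mt2 is chr8:94172368-94172667 (plus strand) and that of Slc30a1 is chr1:191906531-191906830 (plus strand).
Mt1: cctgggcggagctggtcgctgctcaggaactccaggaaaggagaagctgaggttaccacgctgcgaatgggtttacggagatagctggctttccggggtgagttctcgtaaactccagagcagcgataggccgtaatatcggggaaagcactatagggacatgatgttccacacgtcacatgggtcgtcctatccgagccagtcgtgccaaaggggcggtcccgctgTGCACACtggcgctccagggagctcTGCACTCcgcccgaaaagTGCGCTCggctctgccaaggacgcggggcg
Mt2: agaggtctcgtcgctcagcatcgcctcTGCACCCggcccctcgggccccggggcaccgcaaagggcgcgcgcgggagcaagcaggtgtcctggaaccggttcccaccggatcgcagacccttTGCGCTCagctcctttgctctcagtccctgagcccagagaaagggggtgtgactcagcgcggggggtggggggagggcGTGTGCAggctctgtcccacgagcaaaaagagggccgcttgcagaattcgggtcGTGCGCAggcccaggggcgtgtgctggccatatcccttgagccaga
Slc30a1: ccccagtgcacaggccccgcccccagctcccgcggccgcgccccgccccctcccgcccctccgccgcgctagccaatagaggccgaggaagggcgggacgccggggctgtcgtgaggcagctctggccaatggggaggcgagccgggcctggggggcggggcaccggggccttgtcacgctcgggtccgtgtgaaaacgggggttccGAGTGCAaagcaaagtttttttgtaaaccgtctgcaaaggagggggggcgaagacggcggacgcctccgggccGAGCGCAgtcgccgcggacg

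The core was matched 3 times in the Mt1 window, 4 times in that of Mt2 and 2 times in that of Slc30a1. Over all 32851 windows 25.7% held at least 1 match, 1.97% held 3 or more and 0.517% held 4 or more. The Slc30a5 window and 1 of 2 Slc39a8 windows held 1 match each, and none was found in the windows of Slc39a10 and Mtf1. The ETS core GGAA, searched on both strands, was in each of the 9 windows and in 96.0% of all windows. The longer CCGGAA, each match of which is also a GGAA match, was found 1 time in the windows of Mt1 and Mtf1 and in 14.9% of all windows. A match is a description of the letters, and no binding was measured here.

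Mt1, on probe set 1422557_s_at, read 10.87, 11.73 and 9.70 in the controls and 11.87, 11.71 and 11.04 in the induced arrays. Control 2 was as high as the induced arrays and control 3 was the lowest of all. Group means were 10.77 ± 1.02 (SD, n = 3) and 11.54 ± 0.44, a difference of 0.77 ± 0.47 (SE), which is 1.71-fold. Its 95% interval ran from -0.33 to 1.88. Within replicate numbers 1, 2 and 3 the differences were 1.00, -0.019 and 1.34. The suffix of this probe set marks probes that match several transcripts. The other Mt1 probe set, 1451612_at, read 6.50, 6.69 and 6.35 in the controls and 6.58, 6.90 and 6.55 in the induced arrays, a difference of 0.16 ± 0.13.

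Mt2 read 11.19, 12.05 and 10.50 in the controls and 12.14, 12.05 and 11.64 in the induced arrays, again with control 2 level with the induced arrays. Group means were 11.25 ± 0.78 (SD, n = 3) and 11.94 ± 0.26, a difference of 0.70 ± 0.35 (SE), which is 1.62-fold. Its interval ran from -0.13 to 1.52. In pairs 1, 2 and 3 it was 0.95, -0.0035 and 1.14. The intervals of both metallothioneins include 0, and they reach up to 1.88 for Mt1 and 1.52 for Mt2. Which controls were in the fit decided the size: without control 2 the difference was 1.26 for Mt1 and 1.10 for Mt2, and without control 3 it was 0.24 and 0.32. In the fit blocked on the replicate number the 95% intervals were narrower, from 0.19 to 1.36 for Mt1 and from 0.18 to 1.21 for Mt2, and left out 0. Limma's unadjusted p there was 0.018 and 0.017, and the limma adjusted p was 0.9997 for each.

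Levels of Mt1 and Mt2 ran with the pluripotency mean of the arrays. Mt1 on probe set 1422557_s_at and Mt2 had the same order of the arrays. From low to high it was control 3, control 1, induced 3, induced 2, control 2 and induced 1. Probes of 1422557_s_at match several transcripts, and whether any match Mt2 was not examined. The other Mt1 probe set, 1451612_at, was also lowest in control 3, but highest in induced 2. Over the 6 arrays Mt1 and the pluripotency mean had Pearson r = 0.921 (exact permutation p = 0.0069, adjusted 0.023) and Spearman rho = 0.943 (p = 0.017, adjusted 0.056). Mt2 and the pluripotency mean had r = 0.922 (exact permutation p = 0.0042, adjusted 0.021) and rho = 0.943 (p = 0.017, adjusted 0.056). Without controls 2 and 3, the arrays farthest from the median of the pluripotency mean, r was 0.990 and 0.981. For these values control 1 was the only control left. Mt1 and Mt2 themselves had r = 0.987 (exact permutation p = 0.0014, the smallest that 720 orders can give, adjusted 0.014) and rho = 1.0 (p = 0.0028, adjusted 0.028), with r = 0.9999 without controls 1 and 3. Each gene entered by 1 probe set, the one with the highest mean, which for Mt1 was 1422557_s_at. Each adjustment is over the 10 relations computed, the 9 genes against the pluripotency mean and Mt1 against Mt2, chosen after the values were seen. The permutations moved levels freely over all 6 arrays, across groups and replicate numbers. The p-values thus take the arrays as exchangeable, which this design does not ensure.

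For Slc39a4 the same relation had r = 0.459 and rho = 0.543. Its p-values are left out, since its profile over these arrays was picked, though it was counted in the adjustment. Without controls 2 and 3 the r of Slc39a4 was 0.792, over control 1 and the 3 induced arrays. Control 1 was the lowest of these on both measures, on Slc39a4 by how the gene was picked, so this r shows little. Whether the relation differed between Slc39a4 and the metallothioneins was not tested. In a fit with the pluripotency mean as a covariate, chosen after seeing the data, the difference was 0.45 ± 0.17 (SE) for Mt1 and 0.45 ± 0.092 for Mt2. Limma's unadjusted p there was 0.027 for Mt1 and 0.0015 for Mt2, and its adjusted p for both metallothioneins was 0.9996. On the probe set with the highest mean, none of the remaining 6 genes had an adjusted p under 0.05 against the pluripotency mean in exact permutation tests. Their other probe sets were not tested. Of those, Slc39a8 1448482_at and Slc39a10 1439041_at, picked after their values were seen, were lowest in control 3 and highest in control 2. The pluripotency mean had the same lowest and highest arrays.

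**Figure D4:**
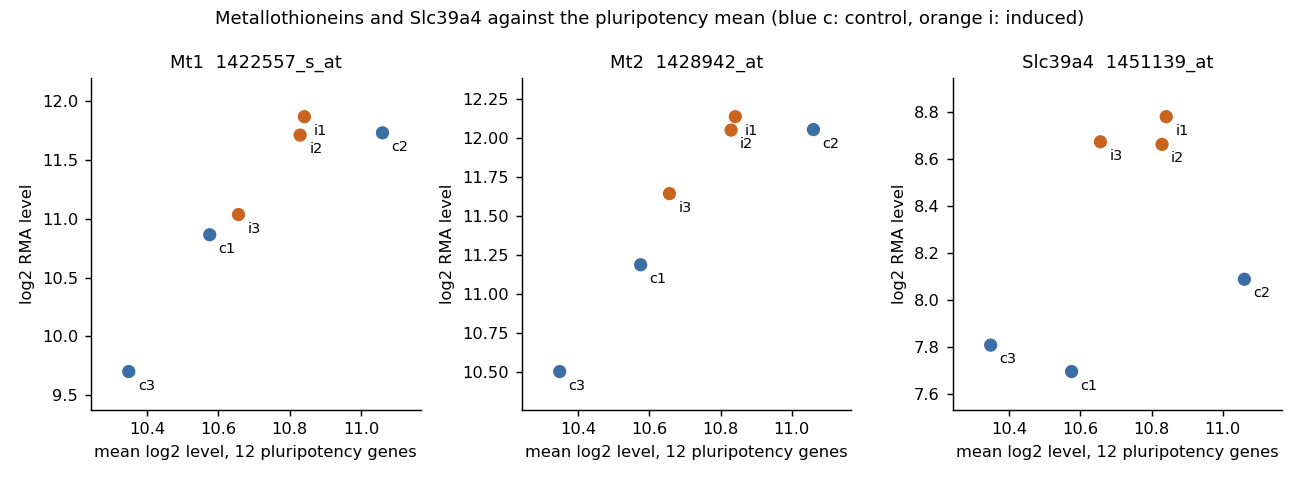
Log2 RMA level of Mt1, Mt2 and Slc39a4 against the mean log2 level of 12 pluripotency genes, 1 point per array, with controls in blue (c1 to c3) and induced arrays in orange (i1 to i3). Mt1 and Mt2 climb with the pluripotency mean through both groups, from control 3 at 9.70 and 10.50, and Slc39a4 runs from 7.69 in control 1 to 8.78 in induced 1.

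Mtf1, which encodes the zinc sensor itself, was measured by 5 probe sets with differences from -0.097 to 0.11, 2 of them positive. Probe set 1418333_at read 8.97, 8.90 and 9.03 in the controls and 8.90, 8.83 and 8.87 in the induced arrays, a difference of -0.097 ± 0.074 (SE), lower in 3 of 3 pairs. Probe set 1429170_a_at read 7.88, 7.91 and 7.89 in the controls and 7.99, 7.94 and 8.08 in the induced arrays. Its groups did not overlap, but the difference of 0.11 ± 0.073 had an interval of -0.057 to 0.28. The probe sets of Mtf1 thus disagreed in sign, and the upper bounds of their intervals reached no more than 0.32.

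The rest of the families, listed by name, comprised 20 genes, all of them measured, with 29 probe sets. Limma called 0 of the 29, with 0 at an unadjusted p under 0.05, and 12 differences were positive and 17 negative with a median of -0.020. Among 10 other ZIP importers, 9 of 17 probe sets were positive, and among 8 other ZnT exporters 2 of 10 were. The largest positive difference was 0.18 ± 0.12 (SE) for the importer gene Slc39a5, and the largest negative one was -0.21 ± 0.10 for Slc39a9 on probe set 1421249_at. The probe sets with the highest means were those of Slc39a7, for an importer that releases zinc from the endoplasmic reticulum, at -0.11 ± 0.13, Slc30a9 at -0.017 ± 0.085 and Slc39a1, for a surface importer, at 0.048 ± 0.12. Induced arrays lay wholly below the controls in 1 of the 29, a Slc30a10 probe set, where 3.7% of all probe sets lay so, and wholly above in 0, where 2.72% did. The metallothionein genes Mt3 and Mt4 had differences of 0.029 ± 0.097 and -0.070 ± 0.084. Over the 6 arrays Mt3 ran from 7.43 to 7.72 and Mt4 from 4.92 to 5.17. Induced 2 and control 2, which were among the higher arrays for Mt1 and Mt2, were the highest for Mt3, at 7.72 and 7.58, and the lowest for Mt4, at 4.92 and 4.98.

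**Figure D5:**
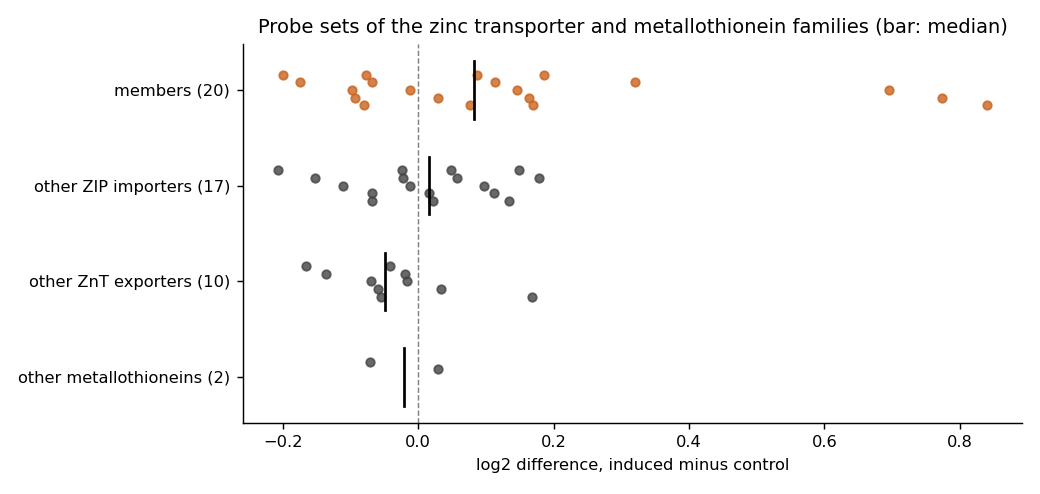
Log2 difference, induced minus control, of every probe set of the 9 member genes and of 20 further zinc transporter and metallothionein genes, with a bar at each median. The 29 further probe sets lie between -0.21 and 0.18, while Mt2 (0.70), Mt1 (0.77) and Slc39a4 (0.84) lie to the right of all of them.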

How the data were processed

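The deposited log2 values per probe set were made with RMA (submitters' processing notes), a method of background correction, quantile normalization and probe summary with its version not stated in the sources used here. Quantile normalization evens out the arrays, and background compresses differences of dim probe sets. Scanner files were not used, so detection could not be judged. After 64 Affymetrix control probe sets of 45101 were left out, 45037 were fitted with limma (version 3.58.1, R 4.3.3; two-sided moderated test), and p-values were adjusted over all of them by Benjamini-Hochberg at a threshold of 0.05. Differences are induced minus control, and the fit has no block. Symbols came from the GEO platform annotation, with 1 symbol for 34958 probe sets, several for 932 and none for 9211. No 2 arrays shared over 0.187% of their values exactly. With 3 arrays per group, their number limits the precision. An exact permutation test of 3 against 3 cannot go below p = 0.1.

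The members and the lists were chosen with earlier results of these data known. Named are all member probe sets, Etv2 and Kdr, the largest positive and negative differences and the 3 highest means among the other family probe sets, and the 5 genes with the profile nearest to Slc39a4, clone names left out. Of the endothelial marker list 11 of 12 genes were higher, with a median of 0.068 and 0 called, and without induced 2, a setting chosen for the marker lists after the data were seen, 9 were, with a median of 0.034.

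Deviations from the group means correlated over probe sets at r = 0.25, 0.17 and 0.23 for replicate numbers 1, 2 and 3. Unlike numbers reached 0.21 (control 1 with induced 3) and 0.18 (control 2 with induced 1), both above the value for number 2, so the arrays only partly follow the numbers. Each matched value is over 0.1, the bar set for treating the numbers as pairs. No label gives a shared culture, so the main fit was kept without a block. Intervals of the blocked fit are given for Slc30a1 1422786_at, Mt1 and Mt2, and for the last 2 they leave out 0. Alternatives were the replicate block, each array left out, other scalings, 1 probe set per gene, a filter on dim probe sets, array weights and another variance prior. The fit was checked on simulated data.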

Additional observations from a re-analysis of the deposited data

How the results depend on the processing

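In 15 alternative settings, 251 of 268 values of the 19 member probe sets outside Slc39a4 kept their direction, and 17 changed sign. Of the settings, 2 were chosen after the data were seen: without both arrays of replicate 2, and the pluripotency mean as a covariate. Limma's adjusted p was at least 0.965 throughout, so only the sign could differ. A kept sign does not mean a kept size: Mt1 1422557_s_at ran from 0.24 to 1.26. Limma called 0 of the member probe sets other than Slc39a4 in every setting, with 0 to 4 of them at an unadjusted p under 0.05, and 0 of the 29 other family probe sets. Over all probe sets 1 was called, and 0 with the replicate block, with arrays centred on their medians, and without both arrays of replicate 2. The count was 2, Etv2 and Hprt, with the pluripotency mean as a covariate, and 0 to 0 over the fits without 1 array. The replicate block changed no other adjusted call, and 2 member probe sets, those of Mt1 and Mt2, had an unadjusted p under 0.05 there. With 1 array left out, differences ran from -0.30 to 0.0094 for Slc39a8 1416832_at, from -0.10 to 0.055 for Slc30a1 1436164_at, from -0.11 to 0.14 for Slc39a14 1438490_at, from -0.089 to 0.36 for Slc39a10 1439041_at, from 0.036 to 0.13 for Slc39a14 1457770_at and from -0.00040 to 0.15 for Mtf1 1452990_at. Without both arrays of replicate 2 the sign also changed for Slc39a8 1416832_at (0.044), Slc30a1 1436164_at (0.11), Slc39a14 1438490_at (-0.0054), Mtf1 1452990_at (-0.043) and Slc39a14 1457770_at (-0.0018). It changed for Slc30a1 1436164_at after quantile normalization (0.027) and with array weights (0.011), and for Slc39a14 1438490_at with array weights (-0.013) and the covariate (-0.014). The cause was not tested. The remaining 13 of the 19 kept their sign in every setting that held them. Slc39a4, whose direction was fixed by its selection, ran from 0.76 to 0.97. Small differences of dim probe sets are limited by background.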

Other observations

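Control 3 and induced 2 held most of the extremes of the 20 member probe sets. Control 3 was the lowest array for 7 and the highest for 6, and induced 2 the lowest for 7 and the highest for 5. Over all probe sets control 3 was the lowest in 16.8% and the highest in 20.6%, and induced 2 in 24% and 31.8%. Induced 1 was the highest for 5 and the lowest for 0, against 9.08% and 13.4% over all probe sets. The 5 include the picked Slc39a4, and the main probe sets of Mt1 and Mt2, which moved together. The others were Slc39a8 1416832_at, at 8.947 against 8.940 in control 2, and Slc30a1 1436164_at, at 10.0815 against 10.0785 in control 2.

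The apolipoprotein gene Apoe and the pluripotency gene Dppa4, picked after their values were seen, had array orders close to those of Mt1 and Mt2. Apoe is also in the list of visceral endoderm markers above. Apoe stood at 11.00, 11.75 and 10.11 in controls 1, 2 and 3 and at 11.68, 11.68 and 10.72 in induced samples 1, 2 and 3. Dppa4 stood at 9.12, 9.78 and 7.96 in the controls and at 9.81, 9.54 and 9.06 in the induced samples. Both were lowest in control 3, as the metallothioneins were.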
